A study of Homo sapiens with 688 samples.

Results

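The platinum compounds of the U87 drug screen were 4: cisplatin, oxaliplatin, satraplatin (JM216) and picoplatin. They were the compounds whose drug label contains platin in any case, and each had 2 wells, so that the group held 8 of the U87 wells, which filled 4 plates of 96 wells, and 8 of the 688 samples of the series. U87 is a human glioblastoma cell line that carries wild-type p53. Cisplatin at 6.3 µM and oxaliplatin at 1.6 µM were on plates 1A and 1B, and satraplatin at 1.706 µM and picoplatin at 2.237 µM were on plates 4A and 4B. All wells were lysed 24 h after treatment, at doses the labels give as leaving 80% of the cells viable at 48 h. Each plate also had 2 wells with DMSO, the vehicle, and 2 untreated wells, which gave 8 wells of each over the 4 plates, and single wells of 92 compounds that were repeated on the second plate of the pair. The expression was read by PLATE-Seq, in which polyadenylated RNA of every well is reverse transcribed with a barcoded oligo(dT) primer and the 3′ ends of the pooled cDNA are sequenced. By the study's methods, U87 lysates from 2 quadrants of the culture plate were pooled into each capture well, so a U87 well here is such a pool. Nothing in the labels says that the A and B wells were separate cultures, so the p-values measure the spread between these wells only.

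Platinum drugs bind the purines of DNA and crosslink them, mostly within a strand. The crosslinks block replication and transcription, are removed by nucleotide excision repair or bypassed by translesion polymerases, and activate the ATR and ATM kinases, which stabilise p53. In cells with wild-type p53, the classic early targets are CDKN1A, which encodes the cyclin-dependent kinase inhibitor p21, and MDM2, the ubiquitin ligase that removes p53. The compounds differ in the ligands around the metal. Cisplatin has ammine and chloride ligands, oxaliplatin a diaminocyclohexane carrier and an oxalate leaving group, picoplatin a methylpyridine in place of an ammine, and satraplatin is a platinum(IV) prodrug that is reduced in the cell. Thiols such as glutathione and metallothionein bind platinum and detoxify it. Since no dose was shared, 0 of the 6 pairs of compounds could be compared at a matched dose, and the values are given side by side without a comparison between compounds.

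The 24 platinum, DMSO and untreated wells held 445250 to 1038075 counts each. The platinum wells held 725627 ± 160957 counts (SD, n = 8) and the DMSO wells 630480 ± 129139 (SD, n = 8), and they detected 10701 ± 481 and 10783 ± 449 genes when thinned to 400000 counts (SD, n = 8 each; two-sided exact permutation test within plates, p = 0.142). Of the 9 glioma line markers, VIM, CD44, FN1, SPARC, LGALS1, TIMP1 and NES carried counts in all 3 groups, with a summed level of 10515 to 20526 CPM (counts scaled to 1 common total per library) in the platinum wells and 12443 to 18780 CPM in the DMSO wells. GFAP was at 0 in all 8 DMSO wells and reached 1.31 CPM in the platinum wells, and CDKN2A, which U87 cells have lost, reached 3.11 CPM there. The prostate markers KLK3 and TMPRSS2 were at 0, with 53.2 to 143.2 CPM summed over the prostate list in the platinum wells and 84.9 to 381 CPM over the breast list. Every compound kept 1 well number on its plates. The DMSO wells were always numbers 40 and 41 and the untreated wells 52 and 53. Wells of the same number resembled each other on plates that held other compounds or untreated LNCaP cells, a prostate cancer line. On the U87 plates alone, neither the compound nor the lack of treatment can be told apart from the well number. Differences of the same well numbers on those other plates are therefore given beside most of the genes described. On the other U87 plates they also hold any effect of the compound in those wells, which was not separated. By the study's methods, lysate of each LNCaP well was divided between capture-plate and column and bead isolation of RNA, so the 2 LNCaP plates appear to hold the same cultures prepared differently, and the labels do not say which plate is which.

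CDKN1A (chromosome 6, 36644237 to 36655114, plus strand, hg19) was higher than in DMSO with oxaliplatin and satraplatin. Oxaliplatin gave 430 CPM on plate 1A and 762 CPM on plate 1B, where the DMSO wells were at 263 and 363 CPM and at 464 and 611 CPM. Both oxaliplatin wells stood above both DMSO wells of their plate. Satraplatin gave 1169 CPM on plate 4A and 1197 CPM on plate 4B, against DMSO wells at 780 and 867 CPM and at 695 and 738 CPM, and both wells were again above their DMSO wells. Cisplatin gave 264 and 561 CPM, within the range of the DMSO wells of both plates. Picoplatin gave 744 CPM on plate 4A, below both DMSO wells, and 868 CPM on plate 4B, above both. The untreated wells were at 312 and 409 CPM on plate 1A, 452 and 512 on 1B, 826 and 855 on 4A, and 589 and 789 on 4B.

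**Figure D1:**
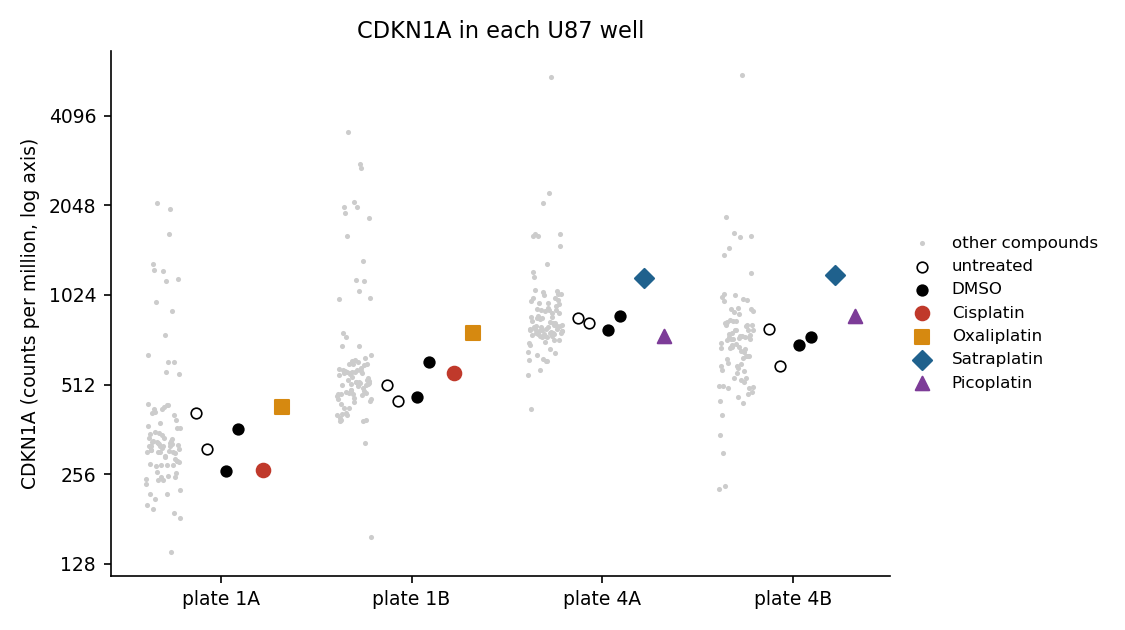
CDKN1A in CPM (log axis) in every U87 well, by plate. Grey points are wells of the other compounds, open circles untreated wells, black circles DMSO wells, and coloured symbols the platinum compounds; both satraplatin wells, at 1169 and 1197, and both oxaliplatin wells, at 430 and 762, lie above the DMSO wells of their plate.

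The 24 wells were fitted together with plate as a term (edgeR, quasi-likelihood test), and genes with a Benjamini-Hochberg adjusted p under 0.05 are called below. The log2 fold change of CDKN1A against DMSO was 0.69 ± 0.15 (SE) for oxaliplatin (adjusted p = 0.0126) and 0.61 ± 0.14 for satraplatin (adjusted p = 0.0100). It was 0.09 ± 0.16 for cisplatin (adjusted p = 0.834) and 0.10 ± 0.15 for picoplatin (adjusted p = 0.868), neither of which was called. The fit gave 0.37 ± 0.09 for the mean of the 4 compounds (adjusted p = 0.0165) and 0.08 ± 0.09 for the untreated wells (adjusted p = 0.730). Taken as a single value, the difference of log2 CPM between platinum and DMSO wells was 0.28 (two-sided exact permutation test within plates, p = 0.0818). That test shuffled single wells, so it treats the wells of 4 compounds as replicates of 1 group. It also lacks the normalization factors of the fit. The permutation test of detected genes above shuffled wells in the same way. Among the 92 compounds of its plates, by the mean difference from the plate median of the other compounds, satraplatin ranked 9 (0.62 on the log2 scale), oxaliplatin 16 (0.46), picoplatin 37 (0.07) and cisplatin 63 (-0.10). Doxorubicin, at 2.72, was the highest compound on plates 1A and 1B, and Triapine, at 2.86, on plates 4A and 4B. In LNCaP cells, where no well was treated, the wells with the numbers of oxaliplatin and satraplatin were also above the wells 40 and 41, by 0.30 and 0.27. The number of picoplatin was above them by 0.32 and that of cisplatin was at -0.07. On the other pair of U87 plates the same numbers gave -0.12 (RS 17053 hydrochloride, the number of oxaliplatin), 0.47 (Paclitaxel, that of satraplatin), 0.25 (Trametinib (GSK1120212), that of picoplatin) and 0.08 (2,3-DCPE hydrochloride, that of cisplatin). With well number as a term, carried by the LNCaP wells and added after seeing the data, the values were 0.41 ± 0.21 for oxaliplatin, 0.30 ± 0.21 for satraplatin, -0.26 ± 0.21 for picoplatin and 0.11 ± 0.22 for cisplatin, and adjusted p was at least 0.861 for all 4. The call for oxaliplatin or satraplatin was also lost when either of its own wells was left out, with fold changes of 0.68 and 0.69 for oxaliplatin and 0.69 and 0.56 for satraplatin.

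MDM2 (chromosome 12, 69201957 to 69239324, plus strand) did not pass the test with any compound. Cisplatin gave 23.1 CPM on plate 1A and 73.1 CPM on 1B, oxaliplatin 18.0 and 69.6 CPM, satraplatin 99.3 and 32.8 CPM on 4A and 4B, and picoplatin 53.9 and 10.6 CPM, with DMSO wells between 10.3 and 78.9 CPM. The log2 fold changes were 0.48 ± 0.37 for cisplatin, 0.33 ± 0.37 for oxaliplatin, 0.45 ± 0.33 for satraplatin and -0.57 ± 0.37 for picoplatin (adjusted p of at least 0.578). Both satraplatin wells were above and both picoplatin wells below the DMSO wells of their plate, while the cisplatin and oxaliplatin wells were within them on plate 1A and above them on 1B. The same-number differences of MDM2 were -0.28 to 0.13 on the other U87 plates and -0.06 to 0.34 in LNCaP. Of the 39 p53 targets listed, 33 passed the filter on low counts. With cisplatin 2 of them rose, C12orf5 (TIGAR, a fructose bisphosphatase) by 1.14 ± 0.24 and RPS27L, a ribosomal protein paralog that p53 induces, by 0.67 ± 0.13 (adjusted p = 0.00196 and 0.00132), where 4.27% of all genes tested were called and 1.63% were called higher. CDKN1A was the only member called for oxaliplatin (0.328% of all genes called) and for satraplatin (1.87%), and no member was called for picoplatin (1.68%; edgeR, with 1071 genes at an unadjusted p under 0.05 over all genes). The median log2 fold change of the list was -0.02 for cisplatin, 0.11 for oxaliplatin, 0.21 for satraplatin and -0.06 for picoplatin, beside medians over all genes of 0.02, -0.01, -0.03 and -0.03.

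None of FAS, GDF15, ZMAT3, XPC, RRM2B, FDXR, PHLDA3 and TP53I3, further p53 targets, was called against DMSO. FAS, the death receptor, was at 0.49 ± 0.22 for cisplatin and 0.61 ± 0.21 for oxaliplatin (adjusted p = 0.226 and 0.305). GDF15, a secreted stress factor, ran from -0.43 for cisplatin to 0.75 for oxaliplatin, and ZMAT3 from -0.67 for cisplatin to 0.41 for oxaliplatin. XPC, the damage sensor of nucleotide excision repair, was at 1.07 ± 0.48 for satraplatin (adjusted p = 0.309). RRM2B, FDXR, PHLDA3 and TP53I3 stayed within a log2 fold change of -1.02 to 0.96. BAX, SESN1 and BTG2 had at most 13.1 CPM in any platinum well and did not pass the filter. RPS27L was called for oxaliplatin once well number was a term (0.80 ± 0.16, adjusted p = 0.0173), where the comparison with DMSO had given -0.08 ± 0.14 and the LNCaP wells of that number -0.85. The oxaliplatin wells themselves held 3791 and 2045 CPM of RPS27L, within or below the DMSO wells of their plates (6686 and 5007, 2535 and 1686 CPM). For cisplatin, RPS27L was at 0.52 with that term (adjusted p = 0.392) and C12orf5 at -0.17.

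Of the genes that mark dividing cells, none of CCNB1, TOP2A, PLK1 and MKI67 was called. CCNB1, the mitotic cyclin, had log2 fold changes of 0.20 for cisplatin, 0.00 for oxaliplatin, -0.05 for satraplatin and -0.14 for picoplatin. TOP2A was at -0.56 ± 0.18 for cisplatin (adjusted p = 0.0639), PLK1 at -0.91 ± 0.50 for oxaliplatin and MKI67 at 0.30 ± 0.20 for satraplatin. Of 30 mitotic genes tested, cisplatin called 1 higher (CCNB2, 1.26 ± 0.22) and 1 lower (TTK, -1.44 ± 0.38), satraplatin 1 higher (CENPE, 0.96 ± 0.24), and oxaliplatin and picoplatin none, beside 4.27%, 1.87%, 0.328% and 1.68% of all genes in that order. The same-number differences on the other U87 plates and in LNCaP were 0.35 and 0.49 for CCNB2, -0.99 and -1.80 for TTK, and -0.32 and 0.71 for CENPE. Among the 30 replication and S phase genes tested, CCNE1, which encodes cyclin E1, was called with picoplatin (2.61 ± 0.68). It rested on 24.1 and 19.5 CPM against DMSO wells of at most 4.25 CPM on those plates, and with well number as a term its sign turned, to -1.16. With oxaliplatin 8 of the 30 mitotic and 10 of the 30 replication genes were above 0, and the medians were -0.22 and -0.34, beside -0.01 over all genes. With well number as a term they were -0.30 and -0.21. The medians of the other 3 compounds lay between -0.12 and 0.10, and those of the untreated wells were -0.07 and 0.01.

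Against DMSO, 378 of the 8845 genes tested were called for cisplatin (4.27%, with 1.63% higher and 2.65% lower) and 29 for oxaliplatin (0.328%, with 20 higher, 0.226%, and 9 lower, 0.102%). For satraplatin 1.87% of the genes were called, 1.25% higher and 54 genes (0.611%) lower, and for picoplatin 1.68%, 79 (0.893%) higher and 70 (0.791%) lower. The untreated wells, which received no compound, called 312 (3.53%) against the same DMSO wells, 2.13% higher and 1.40% lower. They too kept fixed well numbers, 52 and 53, so calls of the untreated wells cannot be told apart from well number either. The untreated comparison rested on 8 wells over 4 plates and each compound on 2 wells over 2 plates, so the shares are not ranked against each other. The called genes moved in the same direction on plates without the compound. Of the 298 genes called with cisplatin that reached 20 CPM in LNCaP, 276 (92.6%) had the same sign in the untreated LNCaP wells of the same numbers, and the median size there was 0.82 of that in U87. The shares with the same sign were 20 of 20 (median size 0.90) for oxaliplatin, 89.3% (0.47) for satraplatin and 82.9% (0.45) for picoplatin, against 59.9% to 65.9% of all genes. On the other pair of U87 plates, 369 of the 378 cisplatin genes had the same sign in the 2,3-DCPE hydrochloride wells of the same number. There 65.8% of all genes did. The shares were 89.7% for oxaliplatin (66.5% of all genes), 89.1% for satraplatin (57.9%) and, in the Trametinib wells, 81.2% for picoplatin (56.0%).

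**Figure D2:**
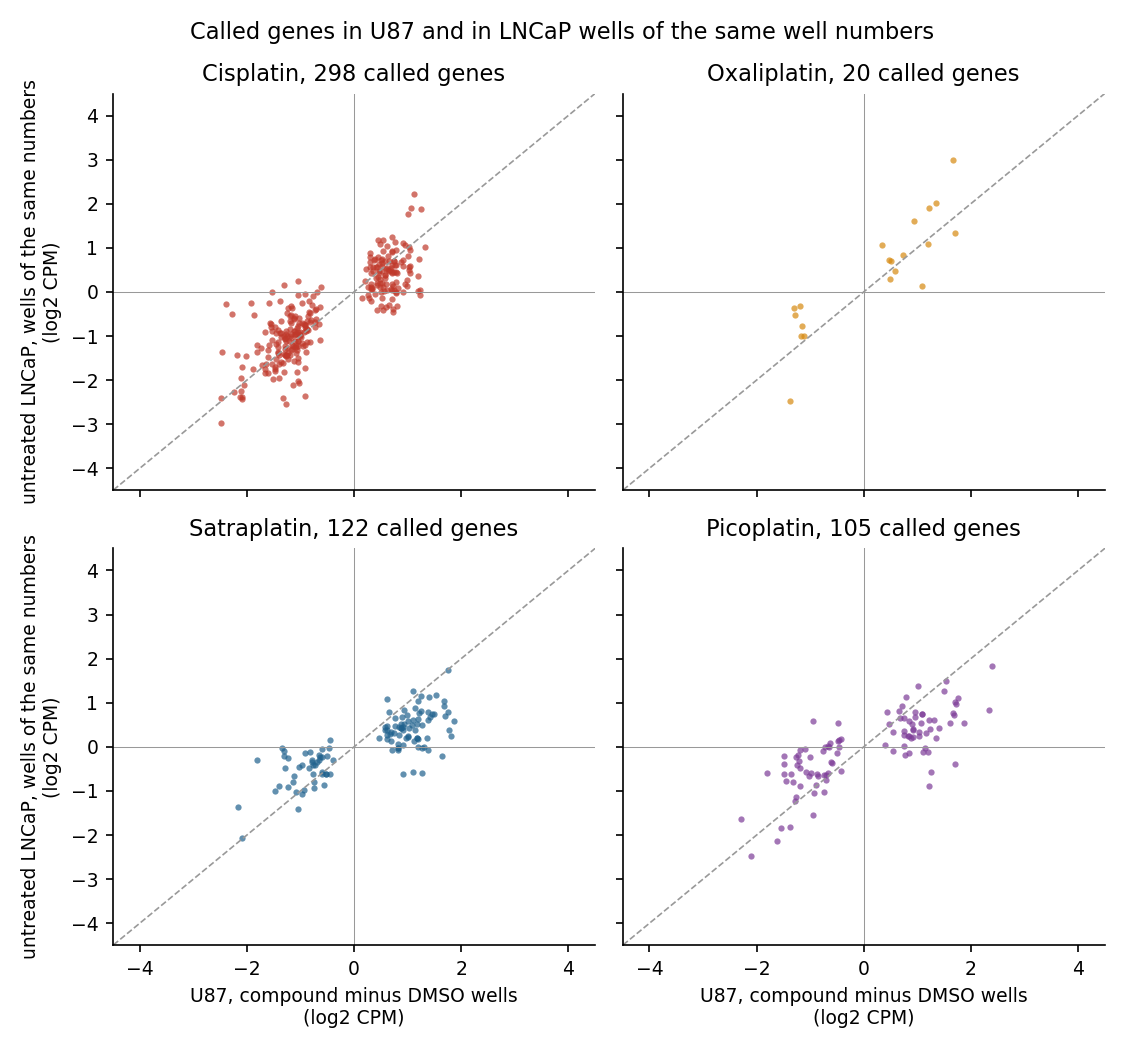
Genes called against DMSO, with the difference between compound and DMSO wells in U87 (x axis, log2 CPM) and between untreated LNCaP wells of the same numbers (y axis, log2 CPM), a panel for each compound; the dashed line marks equal differences. Most points lie at the lower left and upper right, close to the line for cisplatin and oxaliplatin and nearer to 0 on the y axis for satraplatin and picoplatin.

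Once well number was a term, 6910 genes were tested and nearly all calls were lost. Cisplatin, oxaliplatin and satraplatin had 1 call each (0.0145%), LOC150381, RPS27L and CCT2, all higher and none of them called without the term. Picoplatin had 13 (0.188%), 4 higher (0.0579%) and 9 lower (0.130%), of which CD9, NDRG1 and CA12 were also called without it, and the untreated wells called 3 (0.0434%). A smaller group of called genes had a same-number difference under 0.5 of its fitted fold change on the other U87 plates. Genes that reached 20 CPM in LNCaP also had to stay under that limit on the LNCaP plates. Genes under 20 CPM in LNCaP were judged on the other U87 plates alone. The smaller group held 56 of 378 genes for cisplatin, 6 of 29 for oxaliplatin, 67 genes for satraplatin and 60 for picoplatin. It held 39 higher and 17 lower genes for cisplatin, 6 and 0 for oxaliplatin, 46 and 21 for satraplatin, and 37 and 23 for picoplatin. The fit uses normalization factors and the same-number differences of log2 CPM do not, so the limit is not equal for higher and lower genes. BTF3 with cisplatin was at 0.55 by the fit and 0.31 in log2 CPM of the same wells. The counts of all genes called against DMSO with plate as a term depend on single libraries. For each compound they fell when either of its own wells was left out. The counts of the smaller group were not repeated in that way.

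**Figure D3:**
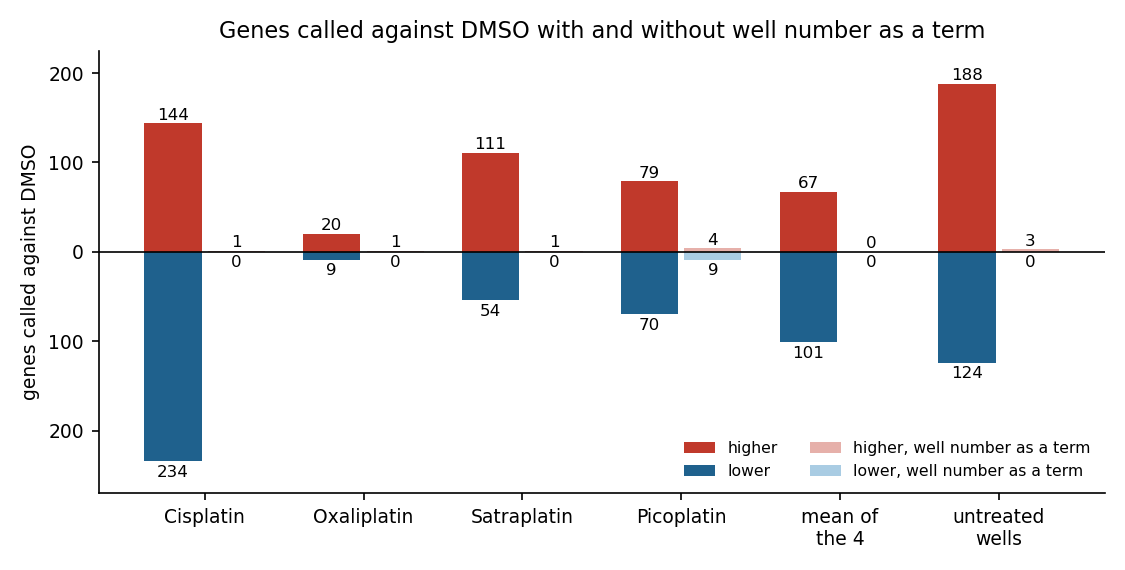
Number of genes called against DMSO (y axis, higher above and lower below 0) for each compound, their mean and the untreated wells, from the comparison with plate as a term (dark bars) and with well number as a further term (pale bars). The bars of the untreated wells add up to 312 genes. With well number as a term the bars of picoplatin, 4 and 9, are the only ones above 3. The dark bars rest on 8845 genes tested and the pale bars on 6910.

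The non-coding RNA H19, the stress ligand ULBP2 and PPP2R5A, a regulatory subunit of protein phosphatase PP2A, were higher with cisplatin. H19 was at 163.96 CPM on plate 1A and 99.5 CPM on 1B, above the DMSO wells (24.7 and 74.2, 15.3 and 26.1 CPM), and differed from DMSO by 2.17 ± 0.41 on the log2 scale (adjusted p = 0.000576). ULBP2 changed by 2.78 ± 0.77 and PPP2R5A by 1.72 ± 0.47. The differences of the 2,3-DCPE hydrochloride wells of the same number were 0.85 for H19, 0.13 for ULBP2 and 0.15 for PPP2R5A, so that these 3 stood apart from the well number on the other U87 plates, and H19 and ULBP2 were under 20 CPM in LNCaP. KRT7 (1.51), PEMT (1.44), TPRA1 (1.43) and MRPL45 (1.41) stood apart likewise, and TM2D1 (1.52), COL15A1 (1.66) and ANKRD40 (1.51) did not. The genes that fell most were CCP110 (-3.31 ± 0.79), a centriolar protein, and BRD7 (-3.25 ± 0.93), a bromodomain protein of chromatin remodelling. Both were near 0 counts in the cisplatin wells and apart from the same-number wells on the other U87 plates. SETD5, TAF3, ZC3H13, MLL3 (KMT2C), TPR, CEP290, RAPGEF2 and LARP1B were lower by 2.32 to 2.86. All 8 were lower by at least 1.29 in the 2,3-DCPE hydrochloride wells too.

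Among repair and stress genes, FANCD2, the hub of the Fanconi pathway, was lower with cisplatin by 2.09 ± 0.47 on the log2 scale, with 5.79 and 10.9 CPM against 14.4 to 69.6 CPM in the DMSO wells of plates 1A and 1B. It was also lower in the 2,3-DCPE hydrochloride wells (-1.77) and in the LNCaP wells of that number (-1.66). CLSPN, the ATR adaptor, was lower by 1.27 ± 0.32, GNL3, a nucleolar GTPase, by 1.93 ± 0.50 and NFKBIA, the NF-kB inhibitor, by 0.89 ± 0.16. Each of these was lower by at least 0.92 in the 2,3-DCPE hydrochloride wells and by at least 1.02 in the LNCaP wells of that number. TXN, the thiol reductase thioredoxin, was higher with cisplatin (0.50 ± 0.11, adjusted p = 0.00219) and with picoplatin (0.43 ± 0.11, adjusted p = 0.0212). Its same-number difference in LNCaP was 0.07 for cisplatin and 0.04 for picoplatin, and in the other U87 wells 0.10 and 0.51. TXN was at 0.16 for oxaliplatin and 0.26 for satraplatin, neither called.

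MT2A, a metallothionein that binds metals through its thiols, was the most abundant transcript of U87 cells and held 8.59% of all U87 counts. It was at 139099 and 78295 CPM with cisplatin, 225793 and 104023 with oxaliplatin, 44089 and 73994 with satraplatin, and 51122 and 83725 with picoplatin. The DMSO wells were at 40339 to 58433 CPM on plates 1A and 1B and at 19232 to 38983 on 4A and 4B, and every platinum well was above the DMSO wells of its own plate. The log2 fold change was 2.03 ± 0.27 for oxaliplatin (adjusted p = 0.00206), 1.41 ± 0.28 for cisplatin (adjusted p = 0.00919) and 1.37 ± 0.19 for the mean of the 4 compounds (adjusted p = 0.000785). It was 1.14 ± 0.29 for picoplatin (adjusted p = 0.0605) and 0.90 ± 0.29 for satraplatin (adjusted p = 0.147), neither called. The untreated wells, at 34920 to 116336 CPM, were also above the DMSO wells of all 4 plates, and MT2A was called there too (1.03 ± 0.18, adjusted p = 0.00428). In LNCaP the wells with the number of oxaliplatin exceeded wells 40 and 41 by 2.99 on the log2 scale and those with the number of cisplatin by 2.23. MT2A with well number as a term was at -0.95 for oxaliplatin, -0.89 for cisplatin and -0.65 for the mean.

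CDR1 (chromosome X, 139865743 to 139866531, minus strand) reached at most 5.10 CPM in the DMSO wells of plates 1A and 1B and 58.3 and 60.4 CPM with oxaliplatin, which gave 4.89 ± 0.79 on the log2 scale (adjusted p = 0.000529). The RS 17053 hydrochloride wells of the same number on plates 4A and 4B exceeded their DMSO wells by 3.38, and the gene carried no counts in LNCaP. NUP50, a nucleoporin, rose from between 27.0 and 45.4 CPM to 76.3 and 93.2 CPM (1.19 ± 0.26, adjusted p = 0.0126), with same-number differences of 0.42 and 0.14 on the other U87 and LNCaP plates. TIFA (1.98), OGDH (1.65), UBE2Q1 (1.54) and COMMD6 (0.86) were higher, and each was higher by at least 0.83 in LNCaP and by 0.91 on the other U87 plates. Of the cytokine genes, IL1B rose by 0.68 ± 0.12 (adjusted p = 0.000685), with 3636 and 4766 CPM above DMSO wells at 2563 to 2817 and 3831 to 3934 CPM, and CXCL3 by 1.06 ± 0.22 (adjusted p = 0.00854). IL1B was 0.26 higher in the RS 17053 hydrochloride wells and CXCL3 was at -0.15 there, and the mean level of both genes in LNCaP was under 1 CPM. The untreated wells called IL1B higher too (0.25 ± 0.07). TOP1, the topoisomerase, fell by 1.01 ± 0.19 (adjusted p = 0.00241) to 248 and 223 CPM from DMSO wells of 289 to 703 CPM, and was lower by 0.62 and 0.77 in the same-number wells of the other U87 and LNCaP plates. MFSD12, WRB, PHIP, DYNC1H1 and NDUFA3 were the other genes that fell most.

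APC, the WNT pathway tumour suppressor, and SRCAP, a chromatin remodelling ATPase, were higher with satraplatin. APC was at 138.2 CPM on plate 4A and 64.2 CPM on 4B, against DMSO wells of 25.5 and 40.1 CPM and of 11.9 and 15.0 CPM. Its log2 fold change was 2.06 ± 0.29 (adjusted p = 4.73e-06), and 3.25 with well number as a term (adjusted p = 0.122). The Paclitaxel wells of the same number exceeded DMSO by 0.87 in APC and by 0.55 in SRCAP, and both genes were under 20 CPM in LNCaP. SRCAP was at 51.5 and 23.6 CPM where no DMSO well of these plates passed 4.25 CPM (3.65 ± 0.80, adjusted p = 0.00477). MGST1, a microsomal glutathione transferase, was at 941 and 1484 CPM against 440 to 592 CPM (1.26 ± 0.14, adjusted p = 7.12e-08). The Paclitaxel wells of the same number exceeded DMSO by 0.35 and the LNCaP wells by 0.64 in MGST1. TOPBP1, the ATR activator, rose by 1.38 ± 0.26 (adjusted p = 0.000645) to 126.9 and 133.6 CPM, with same-number differences of 0.76 and 0.69. IFT20, MOB1B, PPIP5K2, TARDBP, FAM178A, NUDT9, POC5 and CNOT4 were higher by 1.92 to 2.82. MOB1B, FAM178A and POC5 stood apart from their same-number wells on the other U87 plates.

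The genes lowest with satraplatin were RASD2 (-2.30 ± 0.47), VMP1 (-2.23 ± 0.26), which acts in autophagosome formation, and COX4I1 (-2.01 ± 0.29) and NDUFAF2 (-2.0 ± 0.38), a subunit and an assembly factor of the respiratory chain. COX4I1 fell to 432 and 337 CPM from DMSO wells of 1071 to 2949 CPM, and fell as far in the LNCaP wells of the same number (-2.06) and by 1.52 in the Paclitaxel wells. NDUFAF2 was at -0.43 and -0.29 in these wells. CCL2, a monocyte chemokine, fell by 1.31 ± 0.27 (adjusted p = 0.00370) to 45.2 and 79.9 CPM from DMSO wells of 85.4 to 186.3 CPM, with same-number differences of 0.09 on the other U87 plates and -0.25 in LNCaP. The untreated wells of these plates were at 81.1 to 112.9 CPM of CCL2, between the DMSO wells on plate 4A and below them on 4B. In the fit of all plates, the untreated wells called CCL2 lower too (-0.64 ± 0.15). OGG1, the glycosylase of oxidised guanine, fell by 1.30 ± 0.36 (adjusted p = 0.0452), with same-number differences of -0.38 and -0.21. ZNRF1, ZNF787, TNIP2 and MRPS21 were lower by 1.28 to 1.65.

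Picoplatin had 3 calls that were also made with well number as a term, CD9, NDRG1 and CA12. CD9 (chromosome 12, 6308881 to 6347437, plus strand), a tetraspanin of the cell surface, was at 206 CPM on plate 4A and 39.0 CPM on 4B, against DMSO wells of 29.8 and 15.6 CPM and of 14.9 and 8.75 CPM. The log2 fold change was 2.64 ± 0.34 (adjusted p = 6.68e-07), and 1.75 ± 0.42 with well number as a term (adjusted p = 0.0442). Without the well of plate 4A it was 1.61 and no longer called. CD9 was also higher in the Trametinib wells of the same number (1.04) and in LNCaP (0.84). EGR1, an immediate early transcription factor, was at 252 and 101.2 CPM against 56.7 to 91.9 and 16.3 to 22.3 CPM (2.16 ± 0.35, adjusted p = 0.000106), with -0.14 in the Trametinib wells. That value cannot be ascribed to the well number alone, since those wells held Trametinib, and EGR1 was not tested with well number as a term. CCND1, which encodes cyclin D1 (chromosome 11, 69455924 to 69469242, plus strand), was at 878 and 992 CPM against 364 to 480 and 215 to 222 CPM (1.69 ± 0.18, adjusted p = 5.63e-08). It was named after its values were seen. Its same-number differences were -0.24 in the Trametinib wells and 0.54 in LNCaP, and with well number as a term it stood at 1.01 (adjusted p = 0.236).

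**Figure D4:**
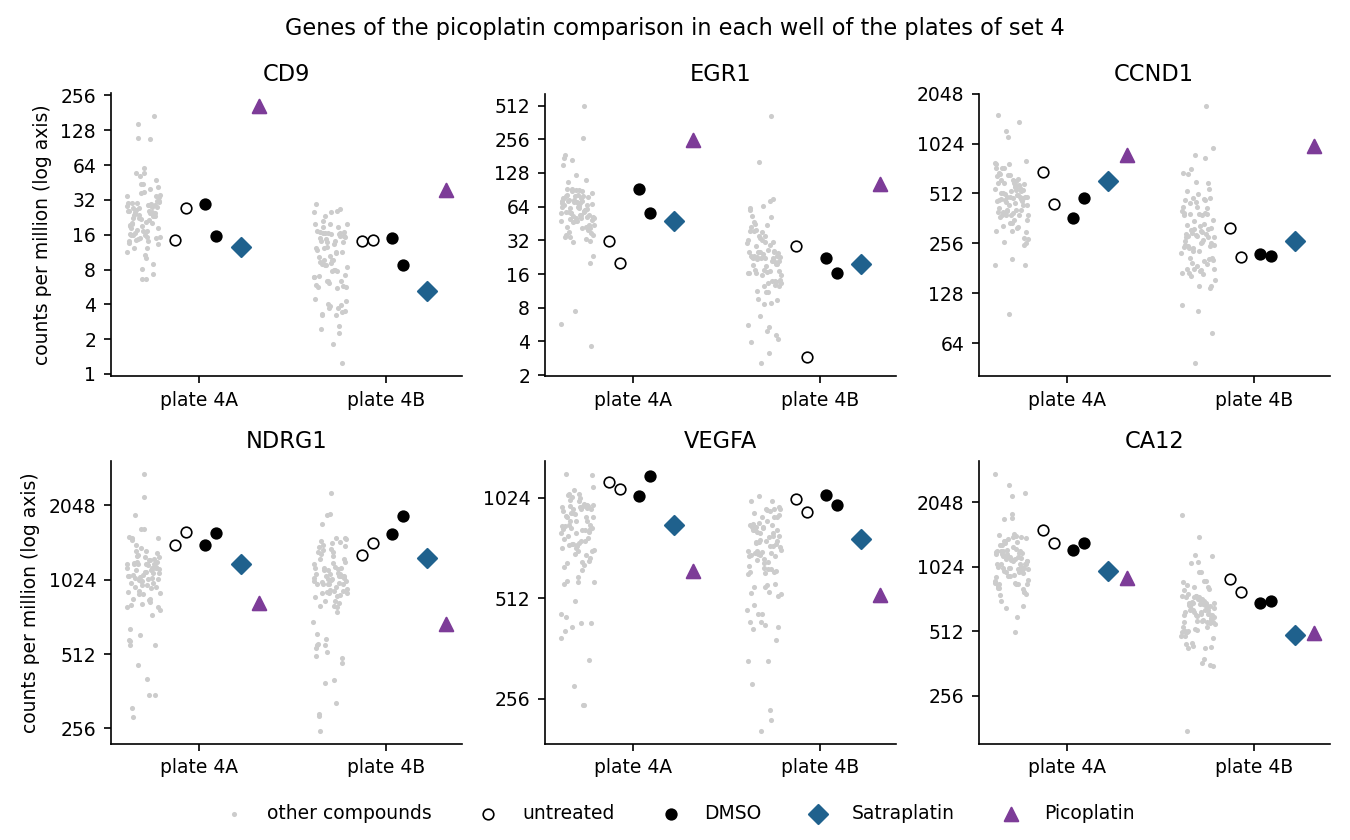
CPM (log axis) of 6 genes in every U87 well of plates 4A and 4B, with wells of other compounds in grey, untreated wells as open circles, DMSO wells as black circles, satraplatin as diamonds and picoplatin as triangles; wells at 0 are not drawn. Picoplatin lies above the DMSO wells for CD9, EGR1 and CCND1 and below them for NDRG1, VEGFA and CA12.

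DPYSL2 (2.60 ± 0.26), a microtubule regulator, and TIPARP (2.17 ± 0.22), an ADP-ribosyltransferase induced by the aryl hydrocarbon receptor, had the smallest adjusted p of the picoplatin genes named (5.85e-10 each). DPYSL2 was at 268 and 160 CPM against DMSO wells of 17.5 to 63.7 CPM, and TIPARP at 371 and 85.2 CPM against 60.9 and 66.0 CPM and 21.3 and 22.3 CPM. The Trametinib wells exceeded DMSO by 1.17 and 0.79 in these genes, and both were under 20 CPM in LNCaP. FAM63A, EIF2A, ZC3H7A, ITPKA and MTIF3 were higher by 1.88 to 2.86, of which EIF2A (2.51) was also 1.83 higher in LNCaP. NQO1, the quinone reductase induced by NRF2, rose by 0.81 ± 0.16 (adjusted p = 0.00185) and HMOX1, another NRF2 target, fell by 0.88 ± 0.23 (adjusted p = 0.0277). MMP3 rose by 0.80 ± 0.20 (adjusted p = 0.0215). In the Trametinib wells NQO1 was at 0.43, HMOX1 at -0.78 and MMP3 at 0.29, and NQO1 was at 0.25 in the LNCaP wells of that number.

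Among the genes lower with picoplatin was NDRG1, a gene induced by hypoxia and stress, at 823 and 676 CPM against DMSO wells of 1414 to 1583 and 1566 to 1853 CPM. Its log2 fold change was -1.09 ± 0.13 (adjusted p = 1.93e-08) and -1.16 ± 0.26 with well number as a term (adjusted p = 0.0198), with same-number differences of -0.58 in the Trametinib wells and -0.05 in LNCaP. VEGFA (chromosome 6, 43737921 to 43754224, plus strand), the vascular growth factor, was at 618.5 and 523.6 CPM against 974 to 1191 CPM (-0.88, adjusted p = 2.04e-06). Here the same-number wells were lower as well, by 1.31 with Trametinib and by 0.86 in LNCaP, and with well number as a term VEGFA was at -0.04. CA12, a carbonic anhydrase, was lower by 0.49 ± 0.14 (adjusted p = 0.0462) and by 1.27 ± 0.30 with that term (adjusted p = 0.0287), while the same-number wells were higher, by 0.53 with Trametinib and by 0.54 in LNCaP. The CA12 call was lost in 8 of 10 cases of leaving out a single well and in 5 of 10 other alternatives. NDRG1, VEGFA and CA12 were named after their values were seen. Relative to the other compounds rather than DMSO, picoplatin ranked 75 of 92 for NDRG1, 74 for VEGFA and 76 for CA12, and the DMSO wells of NDRG1 lay above the median of the other compounds of plates 4A and 4B (1040 CPM). JUND, an AP-1 subunit, fell by 1.67 ± 0.31 to 38.5 and 39.0 CPM from 58.0 to 171.4 CPM, with -0.16 in the Trametinib wells and -0.61 in LNCaP. The untreated wells called JUND lower too (-0.55 ± 0.17). PDE4C, KIAA1143, SETD5, RASSF4, TSNAX, ASF1B, PSMD3, ZNRF1 and B4GALT1 were lower by 1.41 to 2.35, and of these KIAA1143, SETD5, TSNAX and ASF1B were lower by at least 0.93 in the Trametinib wells and by 1.63 in LNCaP.

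Over all genes tested, cisplatin called 4.27%, oxaliplatin 0.328%, satraplatin 1.87% and picoplatin 1.68%, so that a single call in a list of this length says nothing of the list. Nucleotide excision repair had 16 genes tested and no compound called any. FANCD2 with cisplatin was the only call among 20 Fanconi and homologous recombination genes, and translesion and mismatch repair gave none among 11. TOPBP1 with satraplatin and CLSPN with cisplatin were the only calls among 14 damage kinases and p53 regulators. Of 17 genes of platinum transport and thiol detoxification, cisplatin called MT2A and MT1E (0.45 ± 0.13) and oxaliplatin called MT2A. No compound called a gene of the integrated stress response (16 tested) or the BCL2 family and apoptosis list (17 tested). Of 27 nucleolar and rRNA synthesis genes, cisplatin called GNL3 lower and the other 3 compounds called none. Of 15 NRF2 targets tested, cisplatin called TXN higher and picoplatin called TXN and NQO1 higher and HMOX1 lower. Of 17 senescence secretory and NF-kB genes, the calls included NFKBIA lower with cisplatin, IL1B and CXCL3 higher with oxaliplatin, CCL2 lower with satraplatin and MMP3 higher with picoplatin. The untreated wells called 3 of the 17 higher, with IL1B (0.25) among them, and 2 lower, with CCL2 (-0.64) among them. EGR1 and JUND with picoplatin were the only calls of a compound among 19 growth factor and AP-1 genes. The untreated wells called JUND lower as well (-0.55) and DUSP6 higher (0.47). The satraplatin median of that list was -0.26, with 2 of 19 genes above 0. Over the 14 lists the medians ran from -0.34 to 0.42, beside medians over all genes within 0.03 of 0 and, for the untreated wells, list medians from -0.21 to 0.24. Adding well number turned the sign of some medians, as for translesion and mismatch repair with oxaliplatin (-0.14 to 0.30). With that term most lists had fewer genes tested, 10 of the 11 in this list and 4 of the 17 senescence secretory and NF-kB genes. The change in a median is therefore not from the term alone.

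**Figure D5:**
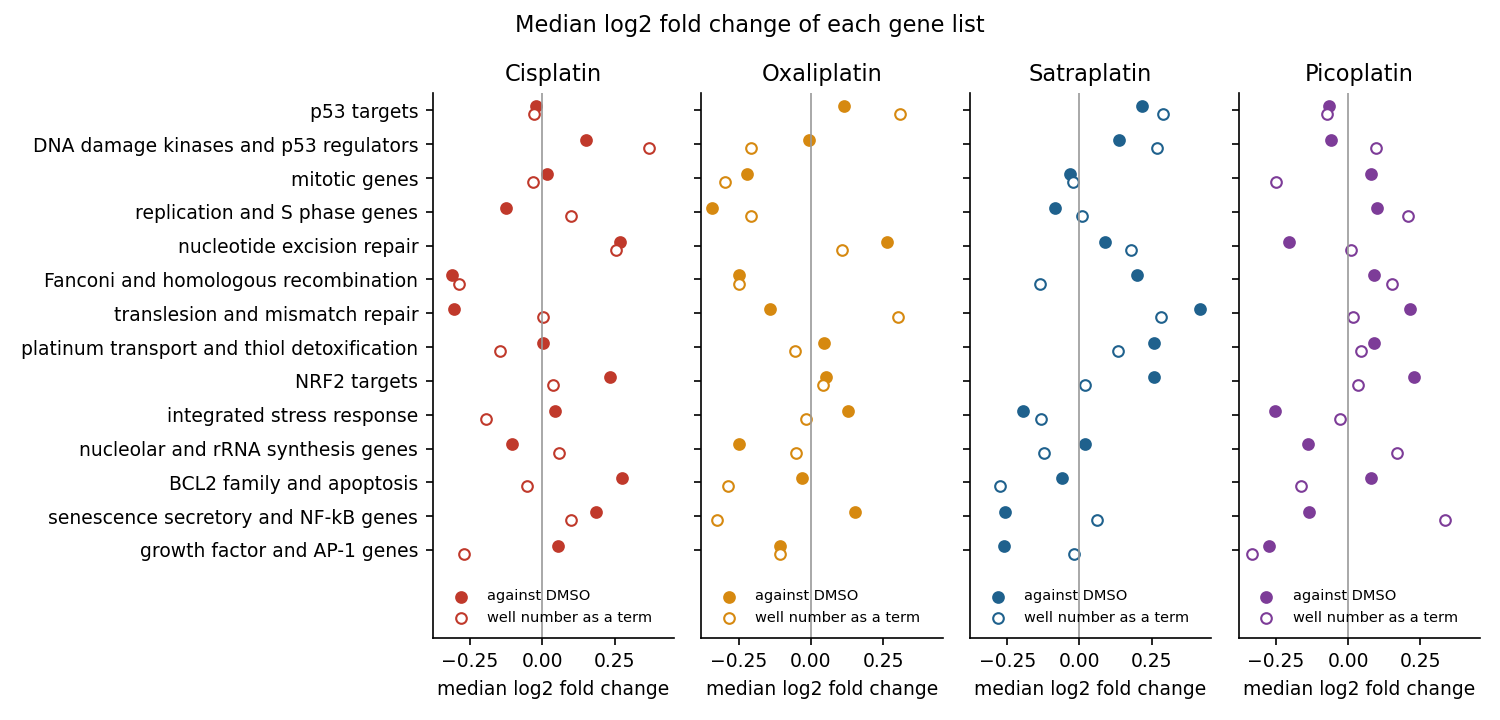
Median log2 fold change against DMSO (x axis) of each gene list (rows) for the 4 compounds, from the comparison with plate as a term (filled) and with well number as a further term (open). The p53 targets lie at 0.11 and 0.21 for oxaliplatin and satraplatin and at -0.02 and -0.06 for cisplatin and picoplatin. In most lists the open points rest on fewer genes than the filled ones.

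Averaged over the 4 compounds, 1.90% of the 8845 genes were called against DMSO, 67 (0.757%) higher and 1.14% lower. Of those in which every platinum well lay outside the DMSO wells of its pair of plates, MT2A was the only higher gene and PARK7 (-1.04 ± 0.14), C2orf68 (-0.72 ± 0.17), MYADM (-0.64 ± 0.10) and PON2 (-0.32 ± 0.09) were the lower ones. PARK7 encodes the redox sensor DJ-1 and PON2 an antioxidant lactonase. Beside well number PARK7 stood at 0.26 and the other 3 at -0.05 to -0.01. CDKN1A, TXN, FTH1 (0.33 ± 0.08), the ferritin heavy chain, and MMP3 were list members that rose. CDC20, the activator of the anaphase-promoting complex, fell by 0.60 ± 0.16 (adjusted p = 0.0281), FBL, the nucleolar methyltransferase fibrillarin, by 0.34 ± 0.09, KLF6 by 0.37 ± 0.11 and JUND by 0.69 ± 0.17. JUND was also called lower in the untreated wells (-0.55). Beside well number CDC20 was at -0.85 and FBL at -0.59, and no gene was called for the mean (edgeR, 457 at an unadjusted p under 0.05).

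A comparison with the other 180 U87 compounds, which does not use the DMSO wells, called no gene for the 4 compounds as a class. Counts were summed over the 2 wells of each compound and 10999 genes were tested (0%), with 371 at an unadjusted p under 0.05 by edgeR and 0 calls by DESeq2. CDR1 (1.94 ± 0.42) and CD9 (1.23 ± 0.27), each high with 1 compound, came nearest with an adjusted p of 0.0513. Each compound alone is 1 summed library in this comparison, assumed to vary like the other compounds, so its SE and p-values have no replicate check of their own. CDKN1A was at 0.01 ± 0.35 for the class, and at 0.34 ± 0.67 for satraplatin, 0.19 ± 0.69 for oxaliplatin, -0.25 ± 0.72 for picoplatin and -0.38 ± 0.74 for cisplatin. The spread of CDKN1A over the other compounds was wide, from 140 to 3617 CPM on plates 1A and 1B and from 228 to 5622 CPM on 4A and 4B. Tested alone, which was added after seeing the data, picoplatin called 3 genes (0.0273%), CD9 (2.80 ± 0.40, adjusted p = 3.51e-07), SAP130, a subunit of a histone deacetylase complex (1.57 ± 0.34), and SLC25A1, the mitochondrial citrate carrier (1.31 ± 0.29). Oxaliplatin called CDR1 (3.62 ± 0.61) and ASNSD1 (1.78 ± 0.38), 0.0182% of the genes. ASNSD1 was 1.10 higher in LNCaP and 1.47 higher in the RS 17053 hydrochloride wells of the same number. Satraplatin called 8 (0.0727%), 7 higher (0.0636%) and 1 lower (0.00909%), with SRCAP (3.95 ± 0.68), GPATCH1, PPIP5K2, NUDT9, TARDBP, NSA2 and MGST1 (1.41 ± 0.31) higher and COX4I1 (-2.24 ± 0.49) lower. Cisplatin called none (597 genes at an unadjusted p under 0.05), with PPP2R5A (1.38 ± 0.35) and CCP110 (-3.37 ± 0.84) among its smallest p-values (adjusted p = 0.341).

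The 2 wells of each compound, which shared a well number, were compared over whole profiles. Over 3117 genes, as differences from the plate median of the other compounds, the 2 wells of a compound correlated with a Pearson r of 0.58 for cisplatin, 0.51 for satraplatin, 0.39 for picoplatin and 0.30 for oxaliplatin. In each case the second well was the most alike of the 92 compounds. The next most alike compounds of the same plates were Mitotane (0.45), Ixabepilone and Mitoxanthrone dihydrochloride for cisplatin, Omacetaxine / Homoharringtonine (0.12), Topotecan hydrochloride and Palbociclib (PD-0332991) HCl for oxaliplatin, PF-04691502 (0.27), Varlitinib and DIALLYL TRISULFIDE for satraplatin, and Raltitrexed (0.14), Plinabulin (NPI-2358) and Perifosine (KRX-0401) for picoplatin. Between platinum compounds r ran from -0.28, for cisplatin and satraplatin, to 0.06, for satraplatin and picoplatin. Among the 92 compounds of the other pair of plates, the most alike was always the compound with the same well number, with an r of 0.62 for 2,3-DCPE hydrochloride, 0.28 for RS 17053 hydrochloride, 0.33 for Paclitaxel and 0.14 for Trametinib. Among the 96 wells of the untreated LNCaP plates it was likewise the well of the same number, with an r of 0.60 for cisplatin, 0.33 for oxaliplatin, 0.45 for satraplatin and 0.41 for picoplatin over 2128 genes. For cisplatin the r with 2,3-DCPE hydrochloride was above that of its own 2 wells. These correlations are across genes, which are not independent replicates. The labels give only the number of a well, and what wells of 1 number share was not tested.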

How the data were processed

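PLATE-Seq counts of the 4 U87 plates and of 2 plates of untreated LNCaP cells, with 96 wells each, were used. Per the labels and the study's methods, the authors assigned reads to wells by barcode, aligned them to hg19 with BWA (version not given in the sources used here), kept unique reads on the sense strand and deposited raw counts per gene symbol, without normalization. Low-input 3′ counts without molecular identifiers carry amplification noise, and a transcript that takes a large share of the counts, such as MT2A, lowers the CPM of the rest, which TMM factors offset. All columns were matched to samples by name. The BT20 tables were not used here. The 92 spike-in rows were removed, which left 23710 symbols.

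The platinum, DMSO and untreated wells (24) were fitted together with edgeR 4.0.16 (R 4.3.3; TMM, filterByExpr, robust quasi-likelihood test) with plate as a term. Genes were called at a Benjamini-Hochberg adjusted p under 0.05 over all genes tested. The biological coefficient of variation was 0.198. Sums per compound were compared with the other compounds in a second fit. The plate pairs the wells, since each compound shares it with its DMSO wells. CPM are counts over the total of the well, and log2 CPM have a prior count of 2. Same-number differences compare the wells of a number with numbers 40 and 41 of each plate. They are in log2 CPM without TMM factors, unlike the fitted fold changes they are set beside. Coordinates are from GENCODE on GRCh37 (hg19). Duplicate wells differed by far more than sampling noise (chi-square per gene of 16.1 to 21.0). Scripts were tested on simulated counts. The members, the 17 gene lists and the tests were chosen with earlier results of these data known. Named genes were CDKN1A and a fixed set of p53 and proliferation genes, list members called, and per comparison up to 10 higher and 10 lower called genes of the largest fold change with at least 20 CPM and every platinum well outside its DMSO wells. Alternatives were RLE factors, DESeq2 1.42.0, limma 3.58.1 on all U87 wells, no filter, no plate term, other references and left-out wells, and, added after seeing the data, well number as a term with the LNCaP wells. That fit counts the 2 LNCaP plates as separate wells, though by the study's methods they appear to share cultures, so its p-values may be too small. No well among the 24 U87 wells fell under 0.5 times the median of its plate, so leaving out shallow wells gave no value. On the LNCaP plates, 1 well of plate A1 and 21 wells of plate A2 fell under that limit, with a lowest total of 19448 counts. The depth of the LNCaP wells with the numbers used was not checked, and none was left out for it. Intervals and spreads cover these wells only. Some list members are not reported here.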

Additional observations from a re-analysis of the deposited data

Results flagged for a closer look

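In a search for single wells far from the rest of their group over the DMSO and untreated wells (40 sets of 8 values, where chance gives about 1 in 20), 3 untreated wells stood apart. BAX was at 12.0 CPM in an untreated well of plate 4B, with the others between 0 and 3.17 CPM. SESN1 was at 14.3 CPM in an untreated well of plate 4A, with the others between 1.06 and 7.03 CPM. RRM2B was at 21.5 CPM in that same well of plate 4A, with the others between 7.61 and 13.6 CPM. All 3 genes had few counts per well. No DMSO well and no depth measure was set apart.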

How the results depend on the processing

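The counts of calls, given below in the order cisplatin, oxaliplatin, satraplatin, picoplatin and mean of the 4, rest on the plate pairing, on single wells and on the well number. Without the plate as a block, which pairs compound and DMSO wells, they were 3, 1, 4, 8 and 3. Leaving out 1 well at a time, the share of genes called was 0.726% to 4.68%, 0.0423% to 0.407%, 0.382% to 1.962%, 0.347% to 1.65% and 1.15% to 1.85%, with a lone remaining well assumed to vary like the others. Well number as a term gave 1, 1, 1, 13 and 0, and without LNCaP plate A1 or A2 (run for counts only) 0, 0, 2, 18 and 7 or 0, 1, 2, 2 and 0. Oxaliplatin had 59 calls with no filter and 60 by DESeq2, satraplatin 89 and picoplatin 75 on their own plates alone and 73 and 99 by limma, and the mean 381 against the untreated wells. Against other compounds, no filter gave 4, single wells 7, and leaving out a compound 0 to 2. CDKN1A was called in 15 of 20 alternatives for oxaliplatin (0.17 to 0.75 on the log2 scale) and for satraplatin (0.30 to 1.00), lost without the block, by limma, with well number and without either own well, and in 0 of 20 for cisplatin and picoplatin. CDKN1A turned sign for cisplatin without the block (-0.42) and on leaving out wells (-0.16 to 0.26), for picoplatin with well number (-0.26) and on leaving out wells (-0.12 to 0.29), and against other compounds with RLE factors (-0.0095), DESeq2 (-0.0095), without the 10 most abundant symbols (-0.010) and on leaving out compounds (-0.13 to 0.11). For the mean of the 4, the CDKN1A call was also lost with the untreated wells as reference and without the first DMSO well or the second cisplatin or picoplatin well. Of 2251 alternative values of the called genes named, 1631 kept direction and call, 594 kept direction only and 26 turned sign. Without the block, TXN (-0.27) and MMP3 (-0.56) with picoplatin turned. With well number, sign turned for cisplatin in C12orf5 (-0.17), MT2A (-0.89), TM2D1 (-1.03), TTK (0.13), NFKBIA (0.27), ZC3H13 (0.37), CEP290 (0.41) and SETD5 (0.53), for oxaliplatin in IMPAD1 (-0.22), UBE2Q1 (-0.57), OGDH (-0.71), MT2A (-0.95), NDUFA3 (0.096) and WRB (1.57), and for satraplatin in POC5 (-0.31) and COX4I1 (0.037). It turned for picoplatin in CCNE1 (-1.16), ASF1B (0.30), TSNAX (0.62) and SETD5 (0.78), and for the mean in FTH1 (-0.056), MT2A (-0.65), PARK7 (0.26) and KLF6 (0.80). The correlation of duplicate wells was 0.53, 0.46 and 0.32 by Spearman for cisplatin, satraplatin and picoplatin, and 0.35, 0.47 and 0.46 from the DMSO mean for oxaliplatin, satraplatin and picoplatin. Total counts differed by 95147 in favour of the platinum wells, where genes at common depth gave -82.1. The causes were not tested. Depth limits genes of a few counts per well, such as BAX, SESN1 and BTG2, to large changes.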

Other observations

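A list of 36 genes known to be induced by hypoxia or HIF1 was drawn up after the picoplatin values had been seen, and is given as a description without a test. Of its 35 members tested, 33 were below 0 with picoplatin against DMSO and 11 were called lower (0.791% of all genes), counting NDRG1, VEGFA and CA12, whose values prompted the list, with a median log2 fold change of -0.46 beside -0.03 over all genes. The median was -0.24 for satraplatin (4 called lower, 0.611% of all genes), -0.06 for oxaliplatin and 0.01 for cisplatin, and 0.05 for the untreated wells. The untreated wells called 3 members higher and 3 lower, beside 2.13% and 1.40% of all genes. Cisplatin called 1 higher and 1 lower, beside 1.63% and 2.65%, and oxaliplatin called none. For the mean of the 4 compounds, 30 members were below 0 and 9 were called lower (1.14% of all genes), with a median of -0.20. All these values are against DMSO, and the DMSO wells of NDRG1 lay above the median of the other compounds of plates 4A and 4B. Among the called genes, ZNF395 (-1.36), PDK3 (-1.30), PFKFB4 (-1.23), HILPDA (-1.18), LDHA (-0.43) and TPI1 (-0.46) had differences between -0.65 and 0.19 in the Trametinib wells of the same number and between -0.41 and 0.18 in LNCaP. STC1, VEGFA and SLC2A3 were lower by at least 1.31 in the Trametinib wells. With well number as a term, 21 of 24 members were below 0, with a median of -0.67, and NDRG1, CA12 and ENO1 (-0.73) were called.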
